A study of Mus musculus with 8 samples.

Results

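Peaks of the nuclear factor I proteins NFIA, NFIB and NFIX were examined at 9 genes for homeodomain and paired-box transcription factors of the cerebellar granule lineage: Pax6, Meis1, Meis2, Meis3, Barhl1, Barhl2, Pbx3, Lmx1a and En2. A peak was taken when its summit lay in the body of one of these genes, or when the nearest transcription start site (TSS) of a protein-coding gene within 100 kb was theirs. For Pax6, peaks inside the neighbouring gene Elp4 were also taken. This gave 259 of the 139188 peaks in the series. Overlapping peaks of different libraries (1 bp or more) were joined into regions, and 97 of 46070 regions belonged to the 9 genes. A region is named below by its gene and by the distance of its summit from the 5′ end of that gene, downstream positive.

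Chromatin immunoprecipitation and sequencing (ChIP-seq) had been done on granule neuron progenitors dissociated from the cerebellum of mice at postnatal day 7. For each of the 3 factors one library was made from the CD1 strain and another from a mixed background (Mixed) that the labels liken to CD1, which gives 6 libraries. Where values are given in pairs below, CD1 comes first and Mixed second. No genotype, transgene or treatment distinguished the groups, and the labels do not say how many animals went into a library or whether libraries came from separate animals, so spread between libraries may be technical. For NFIB the antibody is given as Novus Biologicals per sample and as Sigma in the series text, and 2 input samples were not analysed here. Peak lists carry no expression values, so the labelled cell type could not be checked against its marker genes.

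Homeodomain proteins bind DNA through a helix-turn-helix fold, and Pax6 adds a second DNA-binding part, the paired domain. Meis and Pbx proteins belong to the TALE class of homeodomain factors, which bind DNA as partners of each other and of other homeodomain proteins. In the cerebellum, Lmx1a marks the rhombic lip, the germinal zone from which granule progenitors come. Pax6, Meis1, Barhl1 and Pbx3 are expressed in granule progenitors or their descendants, and En2 takes part in patterning the cerebellum. NFI proteins bind as dimers to a palindrome of 2 TTGGC arms, and a single arm can be bound with lower affinity.

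The sequences that follow are a selection from the stretches in or beside peak regions at these genes whose letters could be read. The Meis1 window at 8.4 kb, the Pax6 element and the Meis1 site were chosen because they hold an NFI motif. The others are promoters or parts of exons that a region overlaps. No summit lies in the Meis1 window, the Pax6 element or the Gm13954 exon. The 300-base promoters come from RefSeq (GRCm38.p6, the assembly behind mm10), and the other stretches from GENCODE M21 transcripts on the same assembly. Capitals mark matches on either strand to 7 motifs: the full NFI palindrome, which is TTGGC and GCCAA with any 5 bases between them, a shorter form of it, TGGC and GCCA with the same spacing, the single NFI element TTGGCA, the E-boxes CAGCTG and CAGATG that neural bHLH factors bind, the homeodomain element TAATTA and the Meis element TGACAG. Both NFI palindromes and the NFI element can overlap each other. A lone arm TTGGC followed by a base other than A was not searched for. Such arms stay in small letters, as in the Barhl1 promoter and the Gm13954 exon. The shorter palindrome was added after the data had been seen. Each stretch is written 5′ to 3′ on the strand named.
Barhl1 promoter, chr2:28916619-28916918, minus strand: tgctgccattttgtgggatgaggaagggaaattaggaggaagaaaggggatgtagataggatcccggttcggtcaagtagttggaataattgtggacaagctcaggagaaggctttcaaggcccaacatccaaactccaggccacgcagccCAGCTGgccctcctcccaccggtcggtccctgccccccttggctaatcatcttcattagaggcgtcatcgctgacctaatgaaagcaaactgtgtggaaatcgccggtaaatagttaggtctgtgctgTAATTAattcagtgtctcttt
Meis1 promoter, chr11:19018920-19019219, minus strand: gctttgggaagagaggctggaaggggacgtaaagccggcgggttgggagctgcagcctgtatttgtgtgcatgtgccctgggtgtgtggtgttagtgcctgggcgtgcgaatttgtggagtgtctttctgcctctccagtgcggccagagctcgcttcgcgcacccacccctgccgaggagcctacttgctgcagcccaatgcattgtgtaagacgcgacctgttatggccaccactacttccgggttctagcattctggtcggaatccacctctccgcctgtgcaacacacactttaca
Meis1 site in the first exon, chr11:19018592-19018620, minus strand: agctggagTGGCAGAAAGCCAtgagattt
Meis1 window at 8.4 kb, chr11:19010480-19010580, minus strand: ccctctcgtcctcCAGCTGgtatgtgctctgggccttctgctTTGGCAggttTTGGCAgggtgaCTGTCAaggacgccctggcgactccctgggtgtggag
Meis1 coding exon at 113.4 kb, chr11:18905689-18905765, minus strand: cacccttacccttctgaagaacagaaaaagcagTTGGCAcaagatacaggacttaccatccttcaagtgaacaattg
Paupar exon upstream of Pax6, chr2:105660295-105660395, plus strand: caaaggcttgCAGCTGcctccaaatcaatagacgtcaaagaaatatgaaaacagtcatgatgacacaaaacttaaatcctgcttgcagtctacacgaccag
Pax6 element at 5.0 kb, chr2:105674035-105674060, plus strand: gcctgatcttTGCCAAccccacttcc
Gm13954 exon in the Pax6 region at 40.4 kb, chr2:105709094-105709229, plus strand: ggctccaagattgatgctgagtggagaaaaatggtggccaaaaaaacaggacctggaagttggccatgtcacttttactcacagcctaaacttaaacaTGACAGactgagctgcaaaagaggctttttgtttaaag

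Letters were known for part or all of 18 of the 97 regions, 5929 bases in all, and for none of the other 79. The full NFI palindrome was found in 0 of the 18. It was rare in any sequence of this kind, in 0.0365% of 32851 RefSeq promoters and 0.932% of 3112 exonic windows as long as the Paupar stretch and centred on the summits of all regions. The shorter palindrome was found in 1 region, at the Meis1 start, and was present in 0.807% of promoters and 6.59% of those exonic windows. The NFI element was found in 3 regions: once in the Meis1 coding exon, once in the Pax6 region at 5.0 kb and as a pair in the Meis1 window at 8.4 kb. It was present in 14.1% of promoters, in 21.2% of the same exonic windows and in 16.7% of windows of 77 bp, the length of the coding exon. The E-box CAGCTG was found in 6 regions and TAATTA in 2, the region at the Barhl1 start and the Paupar region upstream of Pax6, where it lies outside the stretch shown. Among all promoters, 16.3% held CAGCTG and 5.29% held TAATTA. The Meis element was found in 6 regions, against 19.2% of promoters and 9.87% of the exonic windows. CAGATG was found in 3 regions, against 17.2% of promoters. The letters searched ran from 77 to 940 bases per region, while promoters and exonic windows had fixed lengths. The counts of regions can therefore not be read as more or less frequent than those shares.

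The 9 genes differed widely in how many regions they held. Pax6 had 33 regions, Meis1 and Pbx3 had 15 each, Barhl2 had 11, Lmx1a 8, Barhl1 7, Meis2 5, En2 2 and Meis3 1. All 9 genes had at least 1 region, where 48.2% of the 21924 protein-coding genes had one when the same rule was applied to each of them. Without the Elp4 regions nearest to the start of Elp4, which the common rule leaves out, Pax6 had 24 regions and stood at percentile 99.5 of all protein-coding genes. Meis1 and Pbx3 stood at percentile 98.5, Barhl2 at 97.2, Lmx1a at 95.1 and Meis3 at 61.3. These counts and ranks take no account of the length of each gene and its surroundings. Gene bodies ranged from 5.64 kb for Barhl2 to 202.8 kb for Meis2.

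**Figure D1:**
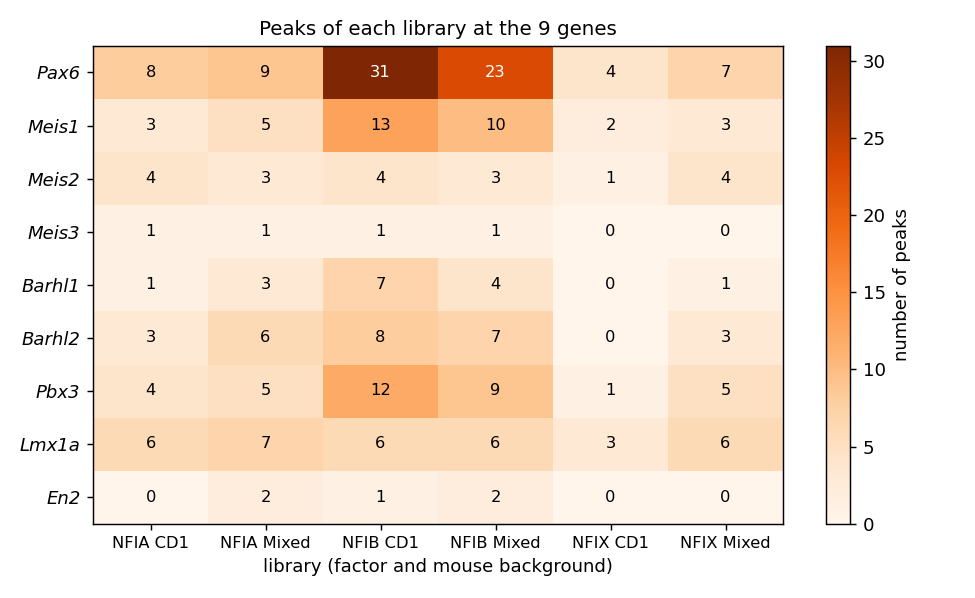
Number of peaks in each of the 6 libraries (columns) at each of the 9 genes (rows), with darker cells for more peaks. Pax6 held 31 NFIB CD1 peaks and 4 NFIX CD1 peaks, while Lmx1a held between 3 and 7 in each library.

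By library, the 9 genes held 30 and 41 NFIA peaks, 83 and 65 NFIB peaks, and 11 and 29 NFIX peaks. The lists ran from 7497 peaks in NFIX CD1 to 36431 in NFIB CD1, and the peaks of the 9 genes were 0.135% (NFIX Mixed) to 0.228% (NFIB CD1) of a list. Read totals were not used here. The deposited fold and p-value of each peak gave the number of fragments at its summit, which was 10 to 93 with a median of 22 over the 259 peaks. The fold is the authors' enrichment at the summit over the local background. Because lists of different length cannot be compared by fold, a fold is also given as its percentile within its own list. Percentiles are not comparable between lists of different length either, so they only place a peak within its list. The median peak of the 9 genes stood at percentiles 44.0 and 41.3 for NFIA, 37.6 and 25.1 for NFIB, and 52.4 and 52.6 for NFIX. In the NFIA and NFIB libraries the middle peak of these genes was thus below the middle of the list, and in the NFIX libraries slightly above it.

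Of the 97 regions, 9 held a peak of all 6 libraries, a share of 9.28% (95% Wilson interval 4.96 to 16.7), against 13.2% of all 46070 regions. Among the 35433 regions in or within 100 kb of a protein-coding gene the share was 11.9%. Such common regions were therefore no more frequent at the 9 genes than elsewhere at this precision. They lay at Pax6 (4), Lmx1a (2), Meis1, Meis2 and Pbx3 (1 each), and none lay at Meis3, Barhl1, Barhl2 or En2. In all, 5 of the 9 genes had one, where 13.1% of protein-coding genes did, with gene length not taken into account. All 9 were intronic, 40.4 to 193.6 kb from the 5′ end of the gene they were assigned to. Their summits agreed between libraries, with a median of 47 bp between the outermost of the 6 summits.

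**Figure D2:**
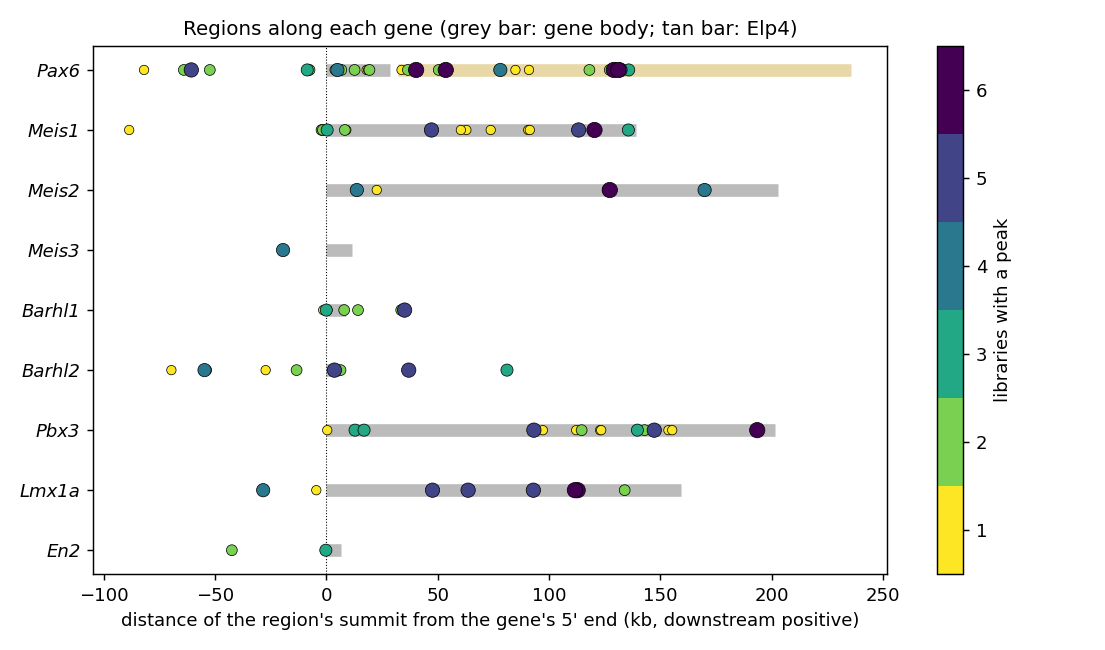
Position of the 97 regions along each gene, as the distance of the summit from the gene's 5′ end in kb, with colour and size for the number of libraries that had a peak. Grey bars are gene bodies and the tan bar is Elp4. The regions found in all 6 libraries lie 40.4 kb or more downstream of the 5′ end.

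A peak in a single library was the case for 36 of the 97 regions (37.1%, interval 28.2 to 47.0), against 31.9% of all regions. A further 10 regions lacked a peak in NFIX CD1 alone, 10.3% of the 97 against 12.1% of all regions. Without that library, the shortest list, 19 of the 97 regions were common, as were 11643 of all 45953 regions. With all 6 libraries 6062 regions of the genome were. Barhl1 and Barhl2 were then among the genes with a common region when NFIX CD1 was left out. Peaks of all 3 factors, in at least 1 library each, were found in 25 regions (25.8%, interval 18.1 to 35.3, against 37.5% of all regions). Of the 97 regions, 31 had a peak in a NFIX library (32.0%, interval 23.5 to 41.8), where 46.5% of all regions did. Both NFIA libraries had a peak in 27.8% of the regions of the 9 genes and 29.8% of all regions, and both NFIB libraries in 54.6% and 56.6%.

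NFIB peaks with no NFIA or NFIX peak made up much of the rest. They accounted for 50 of the 97 regions (51.5%, interval 41.7 to 61.2), against 35.7% of all regions. Among regions in or within 100 kb of a protein-coding gene the share was 37.5%. Pax6 held 23 of the 50. Of the 50, 18 were found in both NFIB libraries (18.6% of the 97, against 9.73% of all regions), 25 in CD1 only and 7 in Mixed only. The 18 lay at Pax6 (−64.0, −52.3, −7.5, 6.8, 12.7, 19.4, 36.7, 50.5, 118.2 and 127.4 kb), Meis1 (−2.1, −1.5 and 8.4 kb), Meis2 (126.4 kb), Barhl1 (8.0 and 14.3 kb) and Pbx3 (114.7 and 143.0 kb). The 50 regions of NFIB alone had a median mean percentile of 18.3, against 44.8 for the other regions of these genes. Over the whole genome the same medians were 24.6 and 48.6, so NFIB-alone regions were weaker in both sets. The NFIB lists were the longest, and with 7497 peaks taken from every library only 19 regions remained, of which 1 was of NFIB alone (5.26%, against 7.98% of all regions at that length). With 1 of the NFIA or NFIX libraries left out, 50 to 60 regions were of NFIB alone. These were 51.5 to 61.9% of the regions of the 9 genes, against 36.0 to 44.7% of all regions. The genes differed in this respect: 23 of 33 regions at Pax6, 9 of 15 at Meis1, 9 of 15 at Pbx3, 4 of 7 at Barhl1, 4 of 11 at Barhl2 and 1 of 5 at Meis2 were of NFIB alone. None of the 8 regions at Lmx1a was, nor any at Meis3 or En2. Regions of NFIA alone numbered 0 (3.02% of all regions) and regions of NFIX alone 4 (3.07% of all regions), each in NFIX Mixed only. No region had a peak in both libraries of NFIA or of NFIX and in no other.

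**Figure D3:**
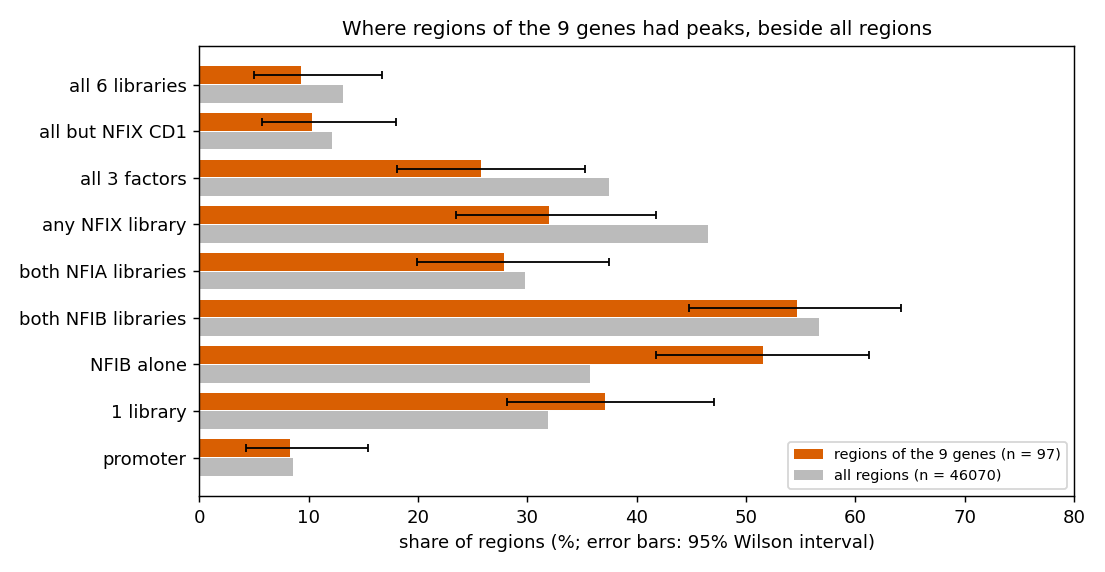
Share of regions with each pattern of peaks, for the 97 regions of the 9 genes (orange, with 95% Wilson intervals) and for all 46070 regions (grey). NFIB alone accounts for 51.5% of the orange set and 35.7% of the grey set. Pax6 held 23 of the 50 orange regions of NFIB alone. With lists of equal length the shares were 5.26% and 7.98%. Only 19 regions of the 9 genes remained there, too few to tell whether a gap persisted.

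The strength of each common region was compared with the other common regions of the genome. In each library its log2 fold was set against the median log2 fold of that library's 6062 common regions, and the 6 values were tested with limma, with Benjamini-Hochberg adjustment over all 6062 regions. Of the 9 regions, 1 was stronger than the typical common region, where 26.1% of all common regions were, and 2 were weaker, where 25.9% were. These counts are near the background. Their mean percentile of fold over the libraries had a median of 72.2, against 75.7 for all common regions. When NFIX CD1 was left out, 11643 regions of the genome were common, so the set compared with changed too. The mean log2 difference of all 9 regions was then higher.

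Pax6 encodes the paired-box and homeodomain factor that granule progenitors express. It has enhancers far downstream, in introns of Elp4, which encodes a subunit of the Elongator complex and is transcribed toward Pax6 from the far side. Of its 33 regions, 18 lay in Elp4, and these held all 4 of its common regions. The other 15, in the Pax6 body or upstream, held 0 common regions and 12 of NFIB alone, against 11 of NFIB alone among the 18 in Elp4. Beside the regions described next, those in Elp4 lay at 33.8, 36.7, 50.5, 51.1, 78.2, 85.0, 91.1 and 118.2 kb. Of these, the region at 78.2 kb had peaks in 4 libraries, with folds of 5.99 to 11.1, and the rest had NFIB peaks only. For 9 of the 18 the nearest start site was that of Elp4, so they belong to Pax6 only by the rule. Without these, by the rule applied to every gene, Pax6 had 24 regions, of which 2 were common.

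The Pax6 region with the highest mean percentile (88.2) lay at 53.7 kb in an Elp4 intron (chr2:105722238-105722894). Its folds were 9.29 and 8.76 for NFIA, 14.5 and 13.7 for NFIB, and 9.10 and 10.04 for NFIX, from 36 to 93 fragments at the summit. It stood between percentile 84.2 and 94.5 in every list, the narrowest span of the 9 common regions, and the 6 summits lay within 35 bp. Its log2 fold was higher than that of the typical common region by 0.27 ± 0.20 (SD, n = 6 libraries; limma adjusted p = 0.0472). With lists of equal length the difference shrank to 0.05 (limma adjusted p = 0.667), and to 0.19 when peaks under a −log10 q of 5 were dropped (adjusted p = 0.133). Without NFIX CD1 it rose to 0.53 (adjusted p = 0.00117). The call was also lost, at differences of 0.25 to 0.29, without NFIA CD1 (adjusted p = 0.0646), NFIB CD1 (0.0909) or NFIB Mixed (0.107), and with 1 value per factor (0.0932).

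A chain of 8 regions less than 5 kb apart spanned 8.88 kb of another Elp4 stretch, 127.4 to 135.8 kb from the Pax6 5′ end (chr2:105796036-105804920), and held 25 peaks. For all 8 the nearest protein-coding start site was that of Elp4. The chain contained 2 common regions. At 129.2 kb (chr2:105797647-105798295) the folds were 12.8 and 8.23 for NFIA, 14.5 and 8.77 for NFIB, and 5.04 and 6.12 for NFIX. The NFIX libraries stood at percentiles 28.2 and 52.6 there, and the other 4 libraries between 81.0 and 95.5. At 131.2 kb (chr2:105799697-105800222) the folds were 4.62 and 6.19 for NFIA, 9.29 and 9.98 for NFIB and 5.02 and 5.42 for NFIX. Both NFIB libraries were high, at percentiles 80.4 and 85.9, and the other 4 lay between 22.9 and 61.6. This region was weaker than the typical common region (mean log2 difference −0.46 ± 0.29, SD, n = 6 libraries; limma adjusted p = 0.00608), and the call was lost without NFIX CD1 (adjusted p = 0.259). Only 139 bp away, a region at 131.9 kb had peaks in 5 libraries, with folds of 5.22 to 10.5 and none in NFIX CD1.

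The fourth common region, at 40.4 kb, overlapped the antisense gene Gm13954 within Elp4 (chr2:105709094-105709459), whose exon is among the sequences printed. Its folds were 4.92 and 5.22 for NFIA, 7.17 and 5.76 for NFIB and 6.12 and 8.43 for NFIX. NFIX Mixed was the highest by percentile (76.9) and NFIA CD1 the lowest (29.9). It was weaker than the typical common region (−0.53 ± 0.36, SD, n = 6 libraries; limma adjusted p = 0.00524), and not without NFIX CD1 (adjusted p = 0.0575). The letters known there cover less than the whole region and hold none of the 6 summits.

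**Figure D4:**
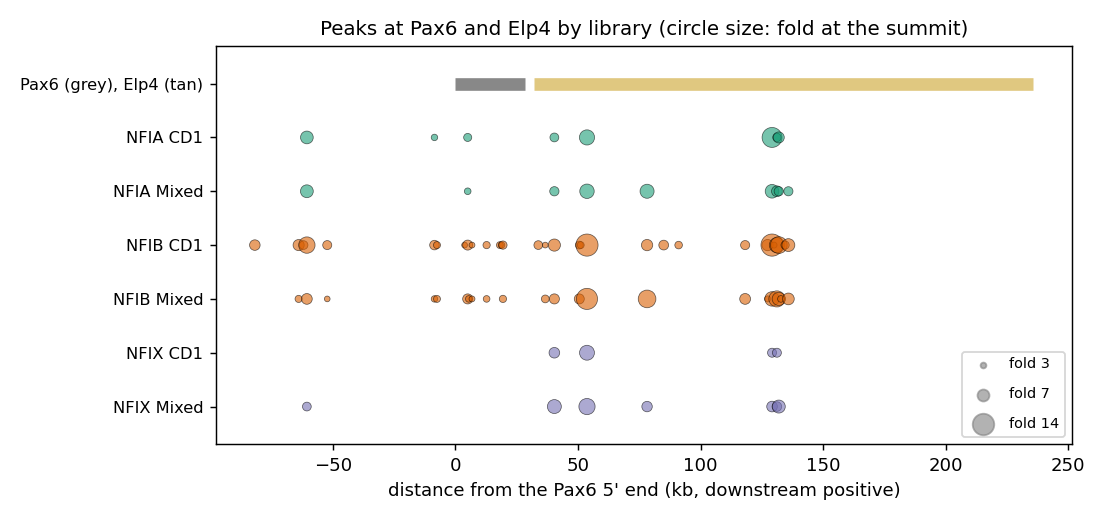
Peaks at Pax6 and Elp4 in each library (rows), by distance from the Pax6 5′ end in kb, with circle area growing with the fold at the summit. Peaks of all 6 libraries line up at 40.4, 53.7, 129.2 and 131.2 kb, inside Elp4, while most peaks over the Pax6 body are in the NFIB rows.

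Nearer to Pax6 the peaks had lower folds. At 5.0 kb a region with peaks in both NFIA and both NFIB libraries (chr2:105673717-105674198) overlapped a UTR of some Pax6 transcripts, with folds of 4.43, 3.54, 5.71 and 5.74, and contained the printed NFI element. The element lay outside all 4 summits. Regions within 1 kb of a Pax6 start site lay at 3.7, 5.4 and 6.8 kb, beside internal start sites of the gene, and had NFIB peaks only, with folds of 3.01 to 3.48 and percentiles of 4.80 to 10.9. Upstream, a region at −60.6 kb inside the antisense gene Pax6os1 (chr2:105608055-105608520) had peaks in every library but NFIX CD1, with folds of 4.89 to 10.2. The region at −8.6 kb overlapped an exon of Paupar, a long noncoding RNA gene beside Pax6, and had peaks in NFIA CD1 and both NFIB libraries with folds of 3.40 to 5.41.

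The TALE genes Meis1, Meis2 and Pbx3 are long, and their common regions lay deep in introns. For Meis1, the region at 120.5 kb (chr11:18898304-18898678) had folds of 8.66 and 8.94 for NFIA, 10.5 and 7.49 for NFIB, and 5.52 and 9.92 for NFIX. Within its own list NFIX CD1 stood at percentile 39.6, and the other 5 libraries stood at 72.6 to 85.2 of theirs. For Meis2, the region at 127.3 kb (chr2:115937787-115938688) had folds of 7.26 and 6.64 for NFIA, 14.1 and 6.27 for NFIB and 7.86 and 9.73 for NFIX. Its summits were spread over 299 bp, the widest of the 9. For Pbx3, the region at 193.6 kb (chr2:34179216-34179743) had folds of 5.08 and 8.41 for NFIA, 12.2 and 12.7 for NFIB and 6.38 and 8.65 for NFIX. NFIA CD1 was low there, at percentile 33.4. The differences of these 3 regions from the typical common region did not pass (limma adjusted p = 0.495 for Meis1, 0.581 for Meis2 and 0.652 for Pbx3), with means of −0.09 ± 0.23, −0.10 ± 0.41 and −0.07 ± 0.31 log2 units (SD, n = 6 libraries).

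Several weaker regions lay in the same genes. Meis1 had a region at 113.4 kb (chr11:18905503-18905881) with peaks in every library but NFIX Mixed and percentiles of 33.8 to 69.4. It spans coding exon 9 of the transcript read, which holds the NFI element TTGGCA and 1 of the 5 summits. A second, at 47.3 kb, had peaks in every library but NFIX CD1 and folds of 3.69 to 6.32. The pair of NFI elements at 8.4 kb lay in a region of both NFIB libraries (chr11:19010438-19011028, folds 2.88 to 4.76) that overlaps the antisense gene Gm16140, and neither summit fell in the printed window. Pbx3 had regions at 93.3 and 147.3 kb with peaks in every library but NFIX CD1. Meis2 had regions with 4 libraries at 13.7 and 169.9 kb, with folds of 4.43 to 6.17 and 6.39 to 7.90. Meis3, the shortest of the 3 Meis genes, had a single region, 19.4 kb upstream in an intron of Slc8a2, a sodium-calcium exchanger gene (chr7:16155501-16155791). It had folds of 5.12 and 3.35 for NFIA and 6.80 and 4.70 for NFIB, and no NFIX peak.

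Lmx1a, a LIM-homeodomain gene, had 8 regions, of which 2 were found in all 6 libraries and 3 in 5 libraries. Among all regions these shares were 13.2% and 13.4%, and 8 regions are too few to set against them. The common regions at 111.7 kb (chr1:167800618-167801053) and 112.9 kb (chr1:167801997-167802303) lay 943 bp apart in an intron. At 111.7 kb the folds were 7.54 and 12.0 for NFIA, 13.1 and 8.17 for NFIB, and 13.4 and 11.6 for NFIX. It was the strongest of the 9-gene set in NFIX CD1, at percentile 96.1, and its lowest percentile was 74.3, in NFIA CD1. At 112.9 kb the folds were 8.42 and 5.71 for NFIA, 5.66 and 6.23 for NFIB and 9.20 and 7.06 for NFIX, and the NFIB libraries stood at percentiles 48.8 and 60.1. Their differences from the typical common region were 0.27 ± 0.51 and −0.36 ± 0.60 log2 units (SD, n = 6 libraries), and neither passed (limma adjusted p = 0.181 and 0.117). Without NFIX CD1 the first did, at 0.42 (adjusted p = 0.0173). A region at 134.0 kb (chr1:167823148-167823458) had peaks in NFIA Mixed (fold 8.20) and NFIX Mixed (12.05) only, both strong in their lists, with a mean percentile of 85.9.

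**Figure D5:**
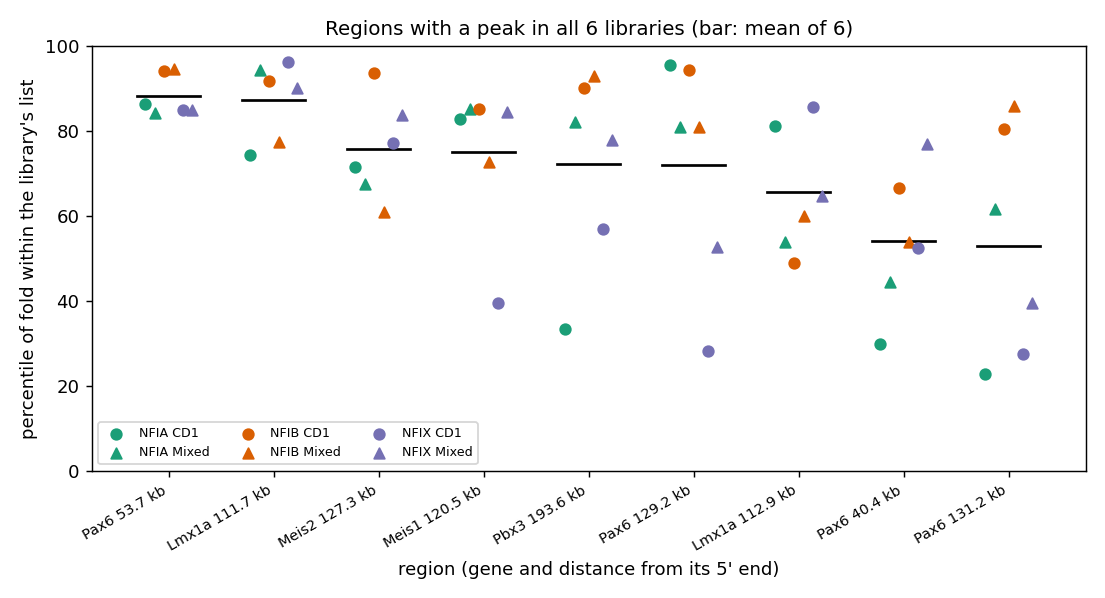
Percentile of fold within the library's own list for the 9 regions with a peak in all 6 libraries, with circles for CD1, triangles for Mixed and a bar for the mean of the 6. The Pax6 region at 53.7 kb stays between 84.2 and 94.5, while the Pax6 region at 131.2 kb ranges from 22.9 to 85.9.

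Barhl1 and Barhl2 encode BarH-like homeodomain factors, and En2 encodes an engrailed homeodomain factor. They had no common region and no NFIX CD1 peak. Barhl1 had 1 region with 5 libraries, at 35.2 kb in an intron of the neighbouring gene Ddx31 (chr2:28881278-28881781, folds 3.64 to 6.97). Barhl2 had 2, one at 3.7 kb in its own body (chr5:106454319-106454918), with folds of 4.92 and 3.37 for NFIA, 7.76 and 5.41 for NFIB and 5.14 for NFIX Mixed. The other lay at 37.0 kb (chr5:106420410-106421403, folds 4.54 to 7.82), where the outermost summits were 605 bp apart. Another, at −54.7 kb in the noncoding gene Gm28050, had both NFIA and both NFIB libraries, with folds of 3.40 to 5.20. En2 had 2 regions. The region 42.4 kb upstream had peaks in NFIA Mixed and NFIB Mixed, with folds of 2.67 and 2.79.

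Peaks at the start sites of these genes were low in fold over the local background. A summit lay within 1 kb of a protein-coding start site in 8 of the 97 regions (8.25%, interval 4.24 to 15.4), against 8.54% of all regions. All 8 had a NFIB peak, 3 had a NFIA peak and 0 had a NFIX peak, where 96.8%, 35.5% and 21.9% of all 3934 promoter regions did. Their mean percentile of fold had a median of 6.35, against 7.96 for all promoter regions and 35.2 for the other regions of the 9 genes. They were not low in fragments: in these 8 regions a library's strongest peak had 20 to 46 at its summit. The median over the 259 peaks was 22. At the Barhl1 start (chr2:28916365-28916782) the folds were 4.47 in NFIA Mixed and 4.11 and 3.67 for NFIB, and 2 of the 3 summits fell inside the printed promoter. The region at the Meis1 start (chr11:19018280-19019252) covered all 300 bases of the printed promoter, with 1 of its 4 summits inside, and had folds of 3.61 in NFIA Mixed and 4.37 and 4.21 for NFIB. Another of those summits lay inside the short palindrome stretch printed for its first exon. At the En2 start (chr5:28165356-28165880) the folds were 3.58 in NFIA Mixed and 2.81 and 2.62 for NFIB. The remaining promoter regions, 3 at Pax6, 1 at Barhl1 and 1 at Pbx3, had NFIB peaks only, and the Pbx3 peak, with a fold of 1.89, was at percentile 0.0361 of its list.

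A list of 27 other homeodomain and Pax genes of the hindbrain and beyond gave a comparison. Of these, 25 had a region and 14 had a common region (51.9%, against 13.1% of protein-coding genes). Their median was 4 regions per gene, against 8 for the 9 genes and 0 for all protein-coding genes. Differences in the length of the genes and their surroundings were not taken into account here. Lmx1b, the paralogue of Lmx1a, had 5 regions and 1 common one, and En1, that of En2, had 3 and 0.

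With a distance limit of 50 kb in place of 100 kb, 87 regions were taken, and Barhl2 kept 7 of its 11. The farthest regions taken by nearest start site lay 88.5 kb from Meis1 (fold 6.24, 1 library) and 81.8 kb from Pax6 (fold 6.07, 1 library). The nearest left out lay 124.7 kb from the Meis1 start, with a fold of 4.98 in 1 library, and 140.5 kb from it, with folds of 3.18 to 4.45 in 4 libraries.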

How the data were processed

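The members and gene lists were chosen with earlier results of these data known. The submitters' processing notes name mm10 and the programs Bowtie2 2.2.6, SAMtools 1.4.1 and MACS2 2.1.0. Read filters, the control used and peak thresholds were not stated in the sources used here. The deposited peak lists, one for each library, hold for every peak a fold enrichment (a ratio over local background) and the −log10 of its p-value and of its q-value, as the narrowPeak format defines its columns. The deposited integer score was not used. Fragments per summit were solved from the fold and p under a Poisson model, within 0.002 on the −log10 p scale, for 259 of 259 peaks. Genes came from GENCODE M21 (GRCm38). Regions were built and assigned with pandas 2.3.3. Common regions were tested with limma 3.58.1 in R 4.3.3, two-sided, at an adjusted p of 0.05. On simulated data with 6062 regions the fit recovered 96.5% of 200 changes of 1 log2 unit, with 5.39% false calls. The simulated libraries were independent of each other, and the differences called here were smaller, from −0.53 to 0.27. Those rates therefore do not carry over to the calls reported here. Libraries of a factor share an antibody, so 1 value per factor was an alternative. Wilson intervals treat regions as independent and cover counting error only. No set test was made. The rule for named regions took up to 5 common regions per gene by mean percentile, regions within 1 kb of a start site, Elp4 regions, regions of both libraries of 1 factor alone and, where a gene had no common region, up to 3 with the most libraries. Other regions were named after their values were seen.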

Additional observations from a re-analysis of the deposited data

Results flagged for a closer look

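The number of peaks at the 9 genes differed between the backgrounds in opposite directions for the factors. Mixed had 11 more peaks than CD1 for NFIA (41 against 30) and 18 more for NFIX (29 against 11). For NFIB the difference, Mixed minus CD1, was −18 peaks (65 against 83). The lengths of the whole lists differed in the same directions, by 6548 for NFIA, 13946 for NFIX and −3148 for NFIB, Mixed minus CD1. With 1 library per factor and background the difference was not tested, and library and background cannot be told apart.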

How the results depend on the processing

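With 7497 peaks per library the 97 regions became 19, the 9 common regions 1, the 50 regions of NFIB alone 1 and the promoter share 0%. This alternative for NFIB alone was chosen after seeing the data. The promoter share was 16.5% with promoters of 5 kb and 15.5% with start sites of all biotypes. Leaving out 1 library gave 74 to 97 regions, 9 to 19 common regions and promoter shares of 6.67 to 8.60%. Over the whole genome 6107 to 11643 regions were then common. Without a NFIA or NFIX library 50 to 60 regions were of NFIB alone (51.5 to 61.9%, against 36.0 to 44.7% of all regions). By limma, the 1 stronger and 2 weaker common regions became 6 and 0 when centred on all peaks of a library (6 and 0 at an unadjusted p under 0.05), 0 and 2 with 1 value per factor (1 and 2 unadjusted), 0 and 1 with −log10 q of 5 or more (0 and 2 unadjusted), 1 and 5 with −log10 p in place of fold, and 0 and 0 with equal lists, where 1 region was tested (0 and 0 unadjusted). They ranged from 0 to 2 stronger and 2 to 7 weaker with 1 library left out, the highest of both without NFIX CD1, where 19 regions were tested. Limma is the only tool run. The sign of the mean log2 difference turned on centring on all peaks for Lmx1a at 112.9 kb (0.27), Meis1 at 120.5 kb (0.53), Pbx3 (0.55), Pax6 at 40.4 kb (0.10), 129.2 kb (0.58) and 131.2 kb (0.16) and Meis2 (0.53), since common regions are stronger than the rest of a list. It also turned for Lmx1a at 111.7 kb with −log10 p (−0.25). With 1 library left out, the mean of 4 regions that had not passed crossed 0: it ranged from −0.12 to 0.24 for Meis1, −0.13 to 0.23 for Pbx3, −0.17 to 0.33 for Pax6 at 129.2 kb and −0.16 to 0.13 for Meis2. The cause was not tested. Merging at 50% overlap, a 50 kb limit, gene bodies only, percentiles and a block for background kept the counts of stronger and weaker regions. Read totals were not used here, and summits with as few as 10 fragments limit what single peaks can show.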
